A study of Mus musculus with 6 samples.

Results

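The 42 genes described here are 34 immediate early genes and 8 heat shock genes that respond to handling and stress of cells. They were chosen by name, from the symbols of the deposited gene list, and all 42 were found among its 31055 genes. They were followed through the cell classes, the endothelial subtypes and the 6 libraries of a single-cell RNA-seq study of mouse heart, and compared by genotype.

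The study profiled sorted EGFP-positive non-myocytes, which the labels call epicardial-derived cells (the epicardium is the mesothelium that covers the heart), in a model of arrhythmogenic cardiomyopathy. The Dsp_het group (Wt1CreERT2:Rosa26mTmG:DspW/F) and the control group (Wt1CreERT2:Rosa26mTmG) held 3 libraries each, all from C57BL/6 mice aged 3 to 6 months. Both groups carried the tamoxifen-activated Cre recombinase under Wt1 control and the mTmG reporter, which turns from Tomato to GFP where Cre has acted, and Dsp_het mice also had 1 conditional allele of Dsp, the gene of the desmosomal protein desmoplakin. Before sorting, cells were released by Langendorff perfusion with collagenase II, and they were then barcoded with the 10x Genomics 3′ chemistry. Cre acts wherever Wt1 is active, so the label does not mark 1 cell type. Samples are numbered, but whether a number stands for 1 animal is not given, so a p-value here measures the spread between libraries, which may be technical.

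Library totals ran from 7573157 to 17083660 UMIs (unique molecular identifiers, 1 per captured transcript). The matrix held 13183 different barcodes, of which 1689 were shared by libraries and 530 were in all 6. Each shared barcode was kept only in the library with most of its UMIs, which left out 5100 of 18283 barcodes as copies, with a median of 589 UMIs. Copies were 17.4, 41.7 and 49.0% of the barcodes of Dsp_het libraries 1, 2 and 3, and 23.6, 25.6 and 18.4% of those of control libraries 1, 2 and 3. After filtering, 12610 cells remained, 2942, 1769 and 1054 in Dsp_het and 2441, 1579 and 2825 in control. Clusters were computed without the 42 genes and named from markers as endothelial-like (9702 cells), fibroblast-like (1203), epicardial-like (587), macrophage-like (217), pericyte-like (203), cardiomyocyte-like (124) and cycling (59), with 515 cells unnamed. In each of the first 3 classes, all markers of its own list were detected.

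Immediate early genes are transcribed within minutes of a stimulus, without new protein synthesis, by factors already present in the cell. Many encode transcription factors such as the FOS and JUN subunits of AP-1, the EGR zinc fingers and the NR4A receptors, and others encode feedback proteins that end signalling or destroy short-lived mRNAs. Heat shock genes encode chaperones, and their induction by unfolded protein runs through the factor HSF1, which binds inverted GAA units in their promoters. Warm enzymatic digestion of tissue is known to induce members of both groups, and in blood vessels Klf2 and Klf4 are also known targets of laminar flow.

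The promoters of 6 members are shown because the results below turn on these genes. They are the 250 bases before the start site, of 1 promoter that holds a marked motif where a gene has several, in RefSeq's GRCm38.p6 annotation, written 5′ to 3′ on the strand of the gene. Capitals mark a pair of heat shock units (GAANNTTC or TTCNNGAA), a CCAAT box (CCAAT, read as ATTGG on the other strand) or a TATA box (TATAAA).
Hspa1a (chr17:34972157-34972406, minus strand): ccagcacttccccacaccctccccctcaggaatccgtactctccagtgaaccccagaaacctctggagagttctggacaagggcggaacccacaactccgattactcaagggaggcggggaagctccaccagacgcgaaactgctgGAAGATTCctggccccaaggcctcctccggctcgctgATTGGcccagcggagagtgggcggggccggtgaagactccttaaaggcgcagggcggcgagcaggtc
Hspa1b (chr17:34959239-34959488, minus strand): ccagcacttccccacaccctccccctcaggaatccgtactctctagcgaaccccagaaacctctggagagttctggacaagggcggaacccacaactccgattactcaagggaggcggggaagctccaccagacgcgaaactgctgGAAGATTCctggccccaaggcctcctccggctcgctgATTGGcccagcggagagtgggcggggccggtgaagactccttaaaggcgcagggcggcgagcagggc
Hsph1 (chr5:149636337-149636586, minus strand): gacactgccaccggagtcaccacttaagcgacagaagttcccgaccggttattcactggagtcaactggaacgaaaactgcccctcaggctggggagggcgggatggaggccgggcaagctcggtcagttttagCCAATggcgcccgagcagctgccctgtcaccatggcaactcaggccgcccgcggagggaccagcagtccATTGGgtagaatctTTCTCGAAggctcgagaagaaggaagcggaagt
Dnajb1 (chr8:83607925-83608174, plus strand): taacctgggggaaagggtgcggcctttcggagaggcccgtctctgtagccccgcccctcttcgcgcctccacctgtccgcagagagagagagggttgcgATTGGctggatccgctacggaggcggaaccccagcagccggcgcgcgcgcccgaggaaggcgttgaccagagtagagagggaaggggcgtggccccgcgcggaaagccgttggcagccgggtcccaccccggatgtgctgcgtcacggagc
Fos (chr12:85473640-85473889, plus strand): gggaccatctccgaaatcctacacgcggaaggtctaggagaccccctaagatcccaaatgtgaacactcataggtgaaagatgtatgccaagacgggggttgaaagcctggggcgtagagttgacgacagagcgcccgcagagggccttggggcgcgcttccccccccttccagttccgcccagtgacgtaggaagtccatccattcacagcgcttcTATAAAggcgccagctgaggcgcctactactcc
Sgk1 (chr10:21991973-21992222, plus strand): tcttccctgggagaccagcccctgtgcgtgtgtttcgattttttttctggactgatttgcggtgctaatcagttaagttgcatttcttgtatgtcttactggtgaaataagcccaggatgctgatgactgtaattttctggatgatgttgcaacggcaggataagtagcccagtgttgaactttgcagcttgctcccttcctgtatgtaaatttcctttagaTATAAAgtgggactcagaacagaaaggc
The Hspa1a and Hspa1b windows differed at 3 of 250 bases (98.8% identity), and each held a heat shock unit pair ending 96 bases and a CCAAT box ending 62 bases before the start. Fos and Sgk1 held a TATA box ending 27 and 22 bases before the start. Of the 42 members, 35 had a promoter in the RefSeq table, 29 immediate early genes with 40 promoters and 6 heat shock genes with 10. A gene was counted where any of its promoters held the motif in the 250 bases before the start, and 6 of the 35 had several promoters (Hsph1, Dnajb1, Dnaja1, Egr2, Maff and Sgk1), which gave them more sequence to match. A heat shock unit pair, searched on both strands, was in 5 of 6 heat shock genes (Hspa1a, Hspa1b, Hspb1, Hsph1 and Dnaja1), in 3 of 29 immediate early genes (Jun, Egr2 and Sgk1) and in 14.5% of all 27025 genes of the table. Dnaja1 held it in 1 of 3 promoters, Egr2 in 1 of 5 and Sgk1 in 2 of 6, neither of them the promoter shown. A CCAAT box, on both strands, was in 5 of 6, 13 of 29 and 37.5% of them. The TATA box, on the strand of the gene, was in 0 heat shock genes, in 5 immediate early ones (Fos, Zfp36l1, Gadd45b, Gadd45g and Sgk1) and in 8.94% of all. The cAMP response element TGACGTCA was in 3 immediate early genes (Btg2, Dusp1 and Maff) and in 1.77% of all, and the AP-1 site TGANTCA in 1 (Zfp36l1) and 7.82%, both searched on both strands. The CArG box bound by serum response factor was in 2 (Egr2 and Zfp36) and 1.62%, and a run of 3 alternating heat shock units, which contains the unit pair, in no member and 0.514%. A match is a description of these letters in this window only.

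Levels are CPM (counts divided by the total and scaled to a sum of 1000000) of the UMIs summed over a library's cells of a class, with no scaling for length since each transcript gives 1 tag, and library values are given in the order of libraries 1, 2 and 3 of each group. Over all kept cells the 6 members with the highest CPM were, from high to low, Klf2, Jund, Jun, Hspa8, Hspb1 and Junb. Klf2, a zinc finger factor of quiescent endothelium, had 1243, 1721 and 1221 CPM in the Dsp_het libraries and 1616, 1337 and 1721 CPM in the control libraries. Jund, the JUN subunit that most cells express at rest, had 1393, 1076 and 1224 CPM in the Dsp_het libraries and 931, 1182 and 1121 CPM in the control libraries. Jun, its inducible relative, had 913, 790.1 and 1082 CPM in the Dsp_het libraries and 595, 1358 and 1083 CPM in the control libraries. Junb, the third JUN subunit, had 1077, 706 and 788 CPM in the Dsp_het libraries and 512, 679 and 664 CPM in the control libraries, so all 3 Dsp_het libraries lay above the 3 control libraries. Hspa8, the constitutive HSC70 chaperone, had 668, 874 and 988 CPM in the Dsp_het libraries and 655, 1003 and 1242 CPM in the control libraries. Hspb1, the small chaperone HSP27, had 726, 867 and 648 CPM in the Dsp_het libraries and 544, 947 and 1016 CPM in the control libraries. For the 5 genes other than Junb the groups overlapped.

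The 34 immediate early genes summed to 12342 ± 2751 CPM in fibroblast-like, 11079.6 ± 3319 CPM in epicardial-like and 10327 ± 1055 CPM in endothelial-like cells (mean ± SD, n = 6 libraries), and these ranges overlapped. The 8 heat shock genes summed to 3530.2 ± 253 CPM in epicardial-like, 2867 ± 846 CPM in endothelial-like and 1498 ± 296 CPM in fibroblast-like cells, and the fibroblast-like range lay below the epicardial-like one. Single members were highest in different classes. Among the immediate early genes, 14 were highest by mean in fibroblast-like cells, 12 in endothelial-like and 8 in epicardial-like cells. Over the 11946 genes with at least 100 UMIs in these classes, the shares were 24.8, 46.2 and 29.1%. Classes come from clusters of the same cells, so these orders are descriptions with no test.

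**Figure D1:**
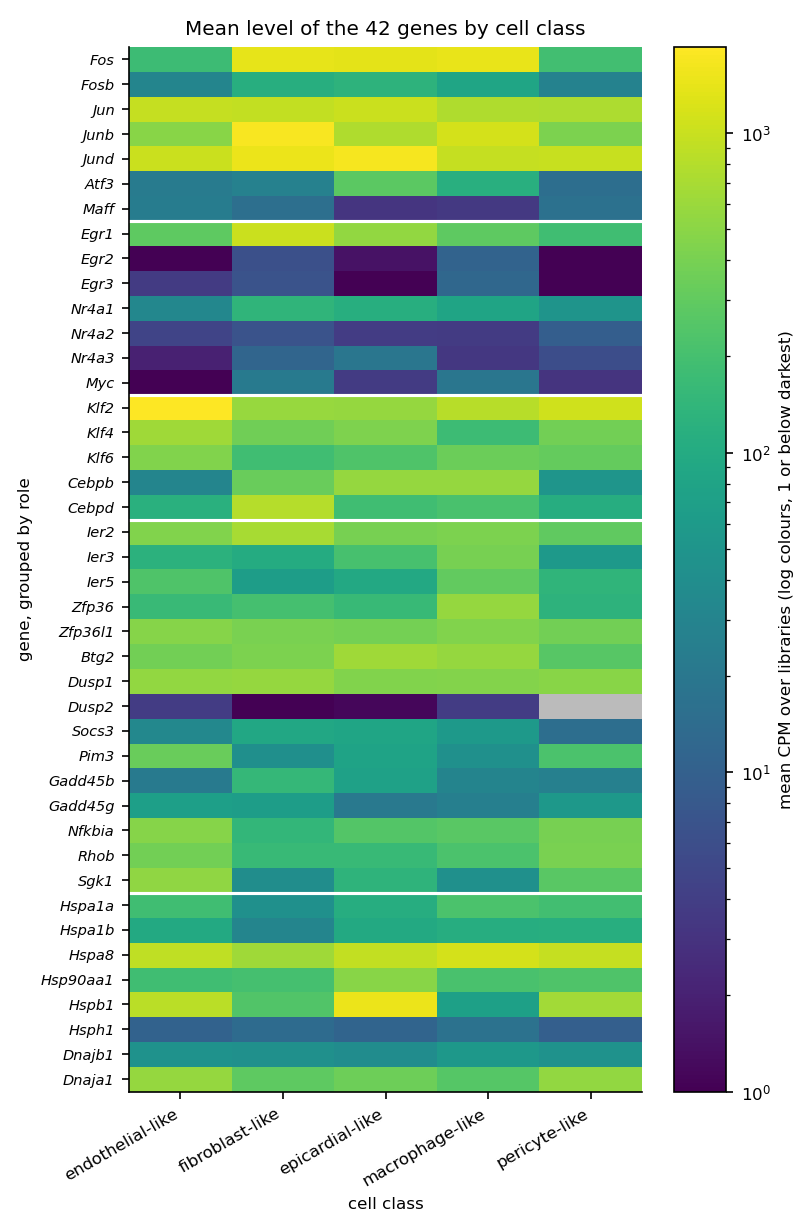
Mean level of each of the 42 genes (rows, grouped by role) in 5 cell classes (columns), as CPM on a logarithmic colour scale, averaged over 6 libraries, or over the 5 and 4 libraries with at least 20 macrophage-like and pericyte-like cells. Klf2 and Sgk1 are brightest in endothelial-like cells, Junb and Cebpd in fibroblast-like cells, and Hspb1 and Atf3 in epicardial-like cells, while grey marks a gene with no UMI.

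Of the AP-1 and ATF subunits, Fos was several times lower in endothelial-like cells than in fibroblast-like and epicardial-like cells. Fos, the partner of JUN in the inducible AP-1 dimer, had 1407 ± 622 CPM in fibroblast-like, 1380.1 ± 844 CPM in epicardial-like and 174 ± 51.5 CPM in endothelial-like cells, and the endothelial range lay below both others. Endothelial-like cells held 76.9% of the cells but 18.2% of the 38583 Fos UMIs, against 44.6% in fibroblast-like and 26.9% in epicardial-like cells. Jun itself barely differed, with means of 1027, 949 and 935 CPM in epicardial-like, endothelial-like and fibroblast-like cells and overlapping ranges. Junb reached 1721 ± 374 CPM in fibroblast-like cells, above every value in epicardial-like (764 ± 200.2 CPM) and endothelial-like cells (361 to 598 CPM). Atf3, a stress-induced partner and repressor of AP-1, reached 279 ± 211 CPM in epicardial-like cells, against 27.3 ± 17.1 CPM in fibroblast-like and 22.7 ± 8.89 CPM in endothelial-like cells. Its range in epicardial-like cells, 117 to 685 CPM, did not meet the others. Maff, a small MAF partner, was low throughout, between 3.21 CPM in epicardial-like and 23.7 CPM in endothelial-like cells.

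Egr1, Nr4a1 and Nr4a3 also had higher means in fibroblast-like and epicardial-like cells than in endothelial-like cells. Egr1, a zinc finger factor induced by growth factors, averaged 1032 ± 189 CPM in fibroblast-like cells and led there in all 6 libraries, against 287 ± 61.8 CPM in endothelial-like cells. The orphan nuclear receptor Nr4a1 averaged 138 ± 54.7 CPM in fibroblast-like, 113 ± 66.1 CPM in epicardial-like and 32.7 ± 9.05 CPM in endothelial-like cells. Its relative Nr4a3 averaged 19.3 ± 6.80 CPM, 11.5 ± 7.19 CPM and 1.98 ± 0.566 CPM in epicardial-like, fibroblast-like and endothelial-like cells, from 364 UMIs in all. Egr2, Egr3 and Nr4a2 averaged under 10 CPM in each of these classes. Myc, which drives growth and ribosome synthesis, was highest in fibroblast-like cells, at 21.7 ± 1.93 CPM against 3.72 ± 2.99 CPM in epicardial-like and 0.67 ± 0.201 CPM in endothelial-like cells, without overlap.

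The KLF factors were highest in endothelial-like cells and the C/EBP factors in fibroblast-like or epicardial-like cells. Klf2 averaged 1861 ± 227 CPM in endothelial-like cells, against 578 ± 123 CPM in fibroblast-like and 563 ± 54.4 CPM in epicardial-like cells, without overlap, and Klf6 was likewise highest in endothelial-like cells in every library. Klf4 was highest there in 5 of 6 libraries. Cebpb, a factor of acute-phase and inflammatory transcription, averaged 569.7 ± 43.4 CPM in epicardial-like, 331 ± 114 CPM in fibroblast-like and 31.1 ± 5.72 CPM in endothelial-like cells. Its relative Cebpd averaged 795 ± 159 CPM in fibroblast-like cells, against 187 ± 60.1 CPM in epicardial-like and 119 ± 12.4 CPM in endothelial-like cells, with no overlap between fibroblast-like cells and the others.

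Several feedback and signalling genes were mainly endothelial. Sgk1, a serum- and glucocorticoid-induced kinase, averaged 539.6 ± 62.3 CPM in endothelial-like, 135 ± 24.1 CPM in epicardial-like and 40.7 ± 15.7 CPM in fibroblast-like cells, 3 ranges without overlap, and 89.9% of its 24563 UMIs were endothelial. The kinase Pim3 averaged 334 ± 83.8 CPM, 80.0 ± 14.5 CPM and 42.4 ± 11.6 CPM in the same order of classes. Ier5, Nfkbia (the NF-kappaB inhibitor IκBα) and the small GTPase Rhob were also above both other classes in all libraries. In all, 7 of 34 immediate early genes (Ier5, Klf2, Klf6, Pim3, Nfkbia, Rhob and Sgk1) had an endothelial range above both others, against 16.5% of the 11946 genes. For fibroblast-like cells it was 4 of 34 (Junb, Gadd45b, Myc and Cebpd) against 6.38%, and for epicardial-like cells 1 of 34 (Atf3) against 7.62%. Gadd45b, a growth arrest and stress protein, averaged 151 ± 87.6 CPM in fibroblast-like, 74.6 ± 10.9 CPM in epicardial-like and 22.0 ± 4.44 CPM in endothelial-like cells. Dusp1, a phosphatase that switches off MAP kinases, had overlapping ranges around 564, 548 and 442 CPM in fibroblast-like, endothelial-like and epicardial-like cells. The mRNA decay factors Zfp36 and Zfp36l1 also overlapped between all 3.

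Of the 8 heat shock genes, 0 had an endothelial-like or fibroblast-like range above both other classes, against 16.5 and 6.38% of the 11946 genes. In epicardial-like cells 2 of 8 did, against 7.62%. Hspb1 averaged 1485 ± 271 CPM there, against 857 ± 226 CPM in endothelial-like and 239.6 ± 31.2 CPM in fibroblast-like cells. Hsp90aa1, the inducible HSP90 chaperone, averaged 493 ± 35.9 CPM, 185 ± 34.2 CPM and 202 ± 34.6 CPM in the same order. The HSP70 genes Hspa1a and Hspa1b and the J-domain co-chaperones Dnajb1 and Dnaja1 were highest by mean in endothelial-like cells, with overlapping ranges. These were 4 of 8, against 46.2% of the 11946 genes. Hsph1, an exchange factor for HSP70, averaged between 10.6 and 14.0 CPM. Hspa1a and Hspa1b lie on chromosome 17 with 9951 bases between them and their transcripts are 84.4% identical, but only 45.6% over the last 500 bases, from which 3′ tags come. How reads shared by both were assigned is not given in the sources used here, so their split is uncertain.

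The smaller classes were measured in fewer libraries. Macrophage-like cells, in the 5 libraries with at least 20 of them, had Fos between 1174 and 1790.2 CPM, Ier3 (a survival factor) between 224 and 601 CPM and Hspb1 between 11.8 and 111 CPM. Pericyte-like cells, in 4 libraries, had Fos between 105 and 259.9 CPM and Rhob between 352 and 445 CPM, closer to endothelial-like than to fibroblast-like cells. Dsp_het library 1 held 2 macrophage-like cells, and Dsp_het libraries 1 and 2 held 9 pericyte-like cells each, so these classes were not compared by genotype.

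Within the endothelium, single immediate early genes followed vessel type while the sums differed little. The 10 clusters included arterial-like (Hey1, Gja4 and Sema3g), angiogenic-like (Apln, Kit and Pgf) and interferon-response-like cells (Ifit1 and Isg15). Clusters 8 (Car4, Timp4 and Rgcc) and 9 (Car4, Btnl9 and Rgcc) were capillary-like. Rsad2, a marker of the interferon-response list, was also among the leading genes of cluster 9, as was Sgk1. Cluster 5 (Rasa4, Cysltr1 and Nr2f2) and cluster 14 (Ccl21a and Vwf) scored as venous, and cluster 11 (Hey1) as arterial. Esm1, a marker of the angiogenic list, was the first leading gene of cluster 11. The names of clusters 5, 14 and 11 each rested on 1 leading marker, so these clusters are called by number here. Cluster 0, with the lowest median depth (2022 UMIs), had no subtype name. The endocardial-like cluster of 107 cells had at least 20 cells in 2 libraries only and was left aside, which leaves 9 clusters. Immediate early genes summed to between 8428 CPM in cluster 0 and 11564 CPM in cluster 5, a ratio of 1.37 with overlapping ranges.

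Sgk1 and Pim3 marked the capillary-like clusters. Sgk1 had 1173, 1014 and 872 CPM in the Dsp_het libraries and 981, 762 and 743 CPM in the control libraries in capillary-like cluster 9, the highest of the 9 clusters in all 6 libraries. Its lowest level was 200.1 ± 32.3 CPM in cluster 14, a ratio of 4.62. Pim3 was highest in capillary-like cluster 8 in all 6 libraries, at 521 ± 91.9 CPM. In arterial-like cells, Gadd45g, a stress protein related to Gadd45b, had 208, 176 and 161 CPM in the Dsp_het libraries and 139.7, 234 and 231 CPM in the control libraries. Its next highest cluster averaged 76.6 CPM, and arterial-like cells led in all 6 libraries for Gadd45g and Gadd45b alike. Cluster 5 led for Klf4 in all 6 libraries, at 1019.9 ± 114 CPM, against a lowest level of 312 ± 48.2 CPM in angiogenic-like cells. Angiogenic-like cells led in all 6 libraries for Maff (45.5 ± 18.4 CPM) and Hsp90aa1 (252 ± 41.2 CPM). Fos ranged from 391.8 ± 189 CPM in cluster 14 to 73.8 ± 21.8 CPM in cluster 0, and cluster 14 led in 4 of 6 libraries. Klf2, which averaged 2432 ± 264 CPM in cluster 5 and 1069.5 ± 172 CPM in cluster 0, led in 3 of 6. Sgk1 was among the 10 leading genes of cluster 9 and Pim3 among those of cluster 8, so these 2 levels describe the clusters and are no separate finding.

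**Figure D2:**
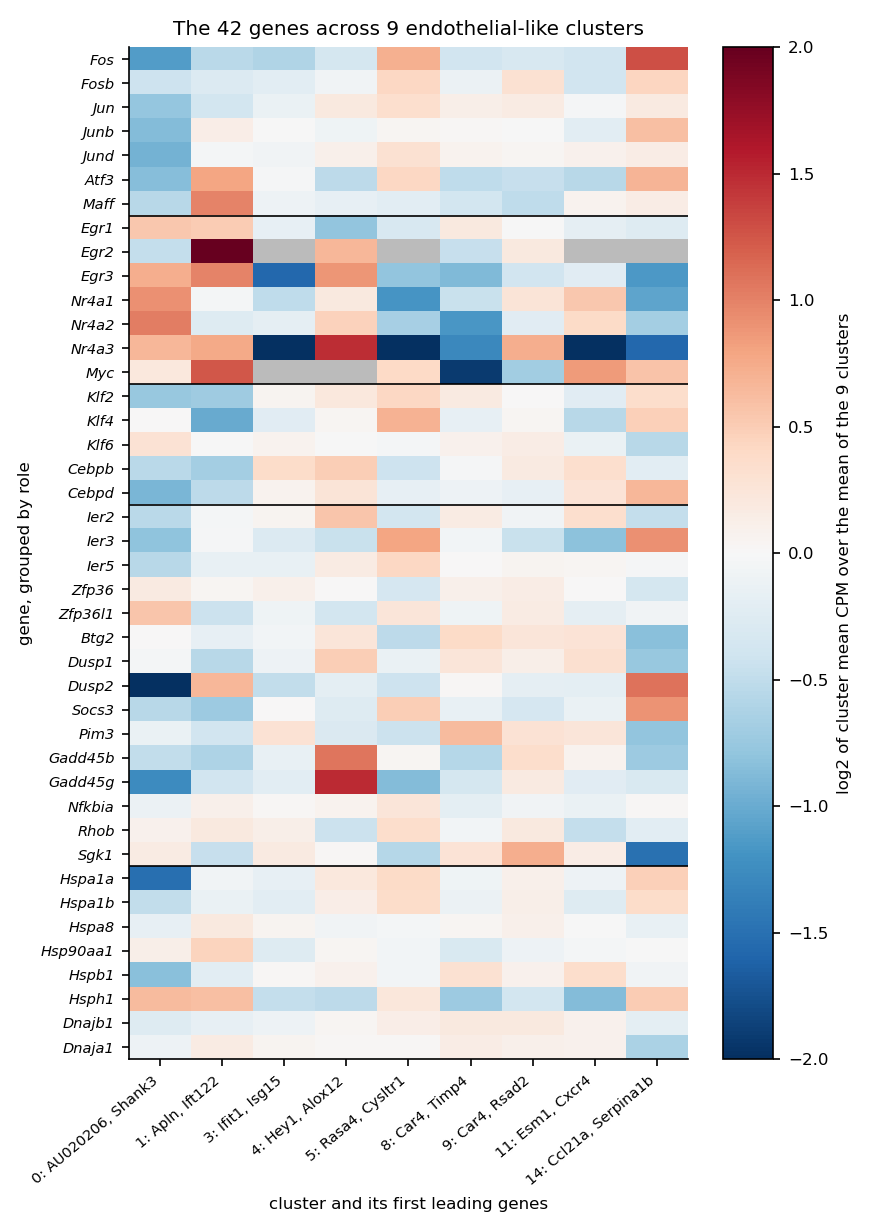
Level of the 42 genes (rows, grouped by role) in 9 endothelial-like clusters (columns, with their first leading genes), as log2 of the cluster mean CPM over the mean of the 9 clusters, averaged over 6 libraries, with grey for no UMI. Gadd45g and Gadd45b stand out in cluster 4, Sgk1 in cluster 9, Pim3 in cluster 8 and Fos in cluster 14.

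The inducible HSP70 genes differed widely between libraries. In endothelial-like cells, Hspa1a had 72.8, 54.7 and 176 CPM in the Dsp_het libraries and 20.2, 473 and 314 CPM in the control libraries. Control libraries 2 and 3 were the highest, Dsp_het library 3 came next, and control library 1 was the lowest of all 6. Hspa1b followed the same order, with 30.1, 32.2 and 95.3 CPM in the Dsp_het libraries and 14.9, 270.1 and 145 CPM in the control libraries. The ratio of the highest to the lowest library was 23.4 for Hspa1a, against a median of 1.40 over 10655 genes, and only 9 of these genes had a larger ratio. Control libraries 2 and 3 were the 2 highest for 7 of 8 heat shock genes in endothelial-like cells, against 5.48% of all 10666 genes with at least 100 UMIs, and control library 1 was the lowest for 4 of 8, against 7.61%. This pairing of libraries was chosen after the values were seen.

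Of the other 6 chaperones, 5 had the same 2 libraries at the top, with smaller ratios, while Hsph1 was highest in control library 3 and then in Dsp_het library 3. The constitutive Hspa8 had 724, 882 and 919.8 CPM in the Dsp_het libraries and 657, 1026 and 1301 CPM in the control libraries in endothelial-like cells. Hspb1 had 792, 884 and 645 CPM in the Dsp_het libraries and 592, 1091 and 1140.4 CPM in the control libraries. The heat shock sum was 2365, 2555 and 2482 CPM in the Dsp_het libraries and 1952, 3855 and 3995 CPM in the control libraries, so the 3 Dsp_het libraries lay close together between control library 1 and control libraries 2 and 3. In all 9 endothelial-like clusters, control library 1 had the lowest heat shock sum and control libraries 2 and 3 were above the other 4 libraries. Of the 34 immediate early genes, 5 had control libraries 2 and 3 as the 2 highest in endothelial-like cells, against 5.48% of all genes. Control library 1 was the lowest for 10 of the 34, against 7.61% of all genes. Fosb and Jun were among the 5 with control libraries 2 and 3 on top. Fosb had 32.9, 17.8 and 24.1 CPM in the Dsp_het libraries and 10.1, 65.1 and 34.9 CPM in the control libraries. Jun had 675, 844 and 843 CPM in the Dsp_het libraries and 566, 1561 and 1204 CPM in the control libraries. The 8 cardiomyocyte markers, all detected, summed to 14.1, 42.9 and 57.9 CPM in endothelial-like cells of the Dsp_het libraries and 23.8, 103 and 125 CPM in those of the control libraries, again highest in control libraries 2 and 3. Their part in the heat shock values was not tested. Median mitochondrial UMI shares of the kept cells ran between 3.22 and 4.08% over the 6 libraries, and median depths between 3489 and 6478 UMIs.

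**Figure D3:**
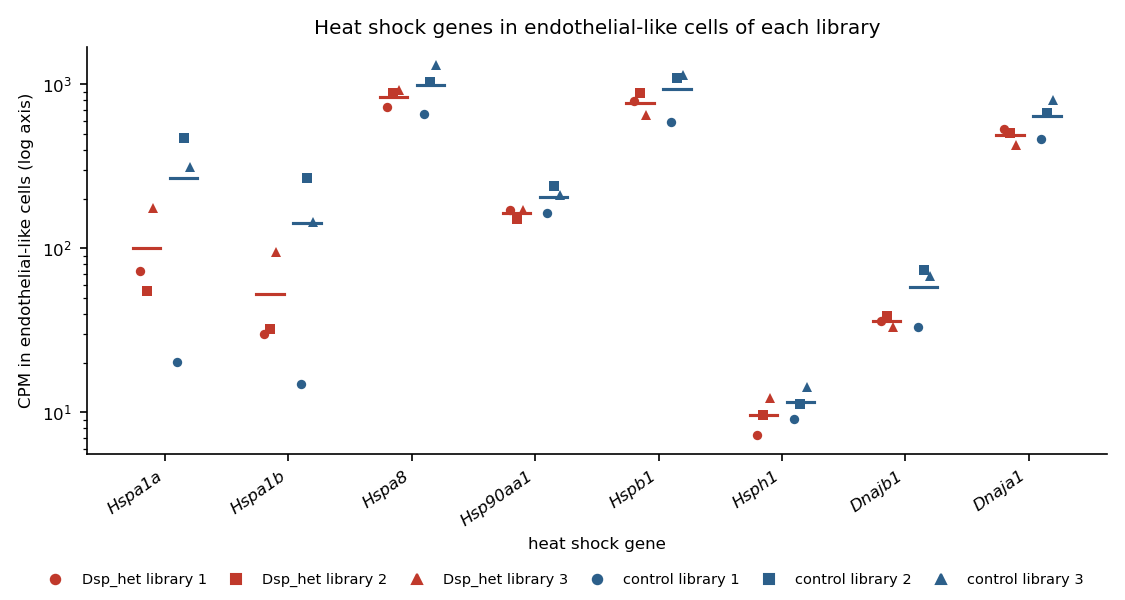
Level of the 8 heat shock genes in endothelial-like cells, in CPM on a logarithmic axis, with 1 point for each library (Dsp_het left, control right, marker shape for the library number) and a line for the group mean. Control libraries 2 and 3 are on top for Hspa1a and Hspa1b at 145 to 473 CPM, while control library 1 is at 14.9 to 20.2 CPM, below every Dsp_het library.

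The library order of heat shock genes differed by class. In fibroblast-like cells Hspa1a had 23.2, 9.12 and 55.2 CPM in the Dsp_het libraries and 4.02, 53.4 and 117 CPM in the control libraries, and control library 1 was again the lowest. In epicardial-like cells Hspa1a had 52.3, 61.6 and 172 CPM in the Dsp_het libraries and 64.5, 153 and 150.3 CPM in the control libraries, where Dsp_het library 3 was the highest. The epicardial-like heat shock sums, 3521, 3561 and 3549.6 CPM in the Dsp_het libraries and 3138, 3479 and 3932 CPM in the control libraries, spanned a narrower range than the endothelial-like ones. For the immediate early genes in epicardial-like cells, Dsp_het library 3 was the highest for 18 of 34. The share of all genes highest in that library was not computed for this class, so the count is not read as particular to these genes.

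The cells with the most immediate early UMIs also held more heat shock UMIs, most clearly in control libraries 2 and 3. For this, each endothelial-like cell with at least 2000 UMIs was thinned to 2000, which kept 1585, 1350 and 695 cells of 2017, 1467 and 750 in Dsp_het libraries 1, 2 and 3, and 1702, 1028 and 1938 of 2097, 1242 and 2129 in control libraries 1, 2 and 3. Cells were ranked by immediate early UMIs and split into 5 equal parts. In the top part, heat shock genes averaged 5.42, 5.60 and 5.62 UMIs per cell in Dsp_het and 4.12, 10.1 and 10.8 in control. In the bottom part they averaged 4.18, 4.64 and 4.16 in Dsp_het and 3.89, 5.50 and 6.15 in control. The top part was higher than the bottom part in all 6 libraries, and the gap was widest in control libraries 2 and 3. In control library 1 the 5 parts averaged 3.89, 3.86, 3.87, 3.86 and 4.12 from bottom to top, so only the top part stood higher. The parts pool all endothelial-like clusters. Median depths of the parts differed little within a library, for example 4146 and 3941 UMIs for the top and bottom parts of control library 2. These are cells of 1 library each, so no test was made.

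Over single endothelial-like cells, immediate early genes took a median of 0.843, 1.03 and 0.796% of a cell's UMIs in Dsp_het and 0.792, 0.985 and 0.979% in control libraries. In fibroblast-like cells the medians were 1.44, 0.989 and 1.09% in Dsp_het and 1.24, 0.842 and 0.866% in control, and in epicardial-like cells 0.874, 0.584 and 1.56% in Dsp_het and 0.556, 0.465 and 0.875% in control. After thinning to 2000 UMIs the epicardial-like medians were 0.95, 0.6 and 1.68% in Dsp_het and 0.55, 0.55 and 0.9% in control, so Dsp_het library 3 remained the highest. Within fibroblast-like cells of Dsp_het library 1, the share ran from 0.525% at the 10th to 2.96% at the 90th percentile, so cells of 1 class and library differed widely.

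For genotype, the gene targeted in these mice was examined first. Dsp had 7.55, 7.40 and 9.70 CPM in the Dsp_het libraries and 12.3, 20.6 and 17.5 CPM in the control libraries in epicardial-like cells, where it is most expressed, from 64 UMIs in all. The Dsp_het libraries lay below the control libraries, with a log2 ratio of means of -1.03 (exact permutation test, two-sided, p = 0.1, the smallest that 3 against 3 libraries allow). Over all kept cells it had 1.22, 1.26 and 3.57 CPM in the Dsp_het libraries and 1.27, 2.20 and 2.10 CPM in the control libraries, which overlapped. A 3′ tag outside the deleted part of Dsp does not show recombination.

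Summed over all kept cells, most immediate early genes had a higher and most heat shock genes a lower estimate in Dsp_het, but no member passed the test. Of 34 immediate early genes, 24 had a positive log2 fold change (median 0.32) and of 8 heat shock genes 2 did (median -0.35), against a median of -0.01 over 12971 genes tested. With edgeR's quasi-likelihood test and Benjamini-Hochberg adjustment over all genes, 0 of 42 members passed an adjusted p of 0.05, as did 0% of all genes. At an unadjusted p under 0.05 there were 10 members, all higher, against 12.5% of all genes in either direction, 9.2% higher and 3.32% lower. DESeq2 called 3 of 42 members, Ier3, Nr4a3 and Btg2 (adjusted p = 0.0109, 0.0254 and 0.0103), among 369 of the 12971 genes. With copies included, edgeR gave adjusted p of 0.154, 0.113 and 0.166 for these 3, and log2 fold changes of 0.40, 1.46 and 0.41. Without Dsp_het library 2, edgeR called Fos and Nr4a3 (adjusted p = 0.0357 and 0.036) among 156 genes. The share of all genes called in that fit is not given here.

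Ier3 gave the smallest p over all kept cells. It had 162, 168 and 167 CPM in the Dsp_het libraries and 118, 129 and 119 CPM in the control libraries, a log2 fold change of 0.44 ± 0.10 (SE, edgeR adjusted p = 0.177), and the groups did not overlap. Btg2, an antiproliferative protein, had 447, 478 and 558 CPM in the Dsp_het libraries and 367, 368 and 349.9 CPM in the control libraries, a log2 fold change of 0.44 ± 0.11 (edgeR adjusted p = 0.206). Nr4a3 had 10.4, 4.46 and 10.2 CPM in the Dsp_het libraries and 2.84, 3.52 and 3.01 CPM in the control libraries, a log2 fold change of 1.42 ± 0.35 (edgeR adjusted p = 0.202). Fos had 1220.2, 352 and 915 CPM in the Dsp_het libraries and 335, 368 and 368 CPM in the control libraries: 2 Dsp_het libraries were high, and the third lay within the control range. In all, 5 immediate early genes were higher (Junb, Ier3, Nr4a3, Btg2 and Myc) and 1 was lower (Ier5) without overlap, against 17.6% of all genes, 10.8% higher and 6.77% lower. Fibroblast-like and epicardial-like cells, which carry more Fos, Nr4a3 and Junb, gave 47.3, 20.6 and 30.5% of the UMIs of the Dsp_het libraries and 12.9, 14.6 and 16.7% of those of the control libraries. The part of this difference in composition in the sums was not tested as such, and the classes were therefore compared one by one.

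In endothelial-like cells, all 8 heat shock genes had a lower mean in Dsp_het and the immediate early genes showed no common direction. The median log2 fold change of the heat shock genes was -0.37, against 0.00 over the 11315 genes tested, and of the 32 immediate early genes tested 14 were higher and 18 lower (median -0.03). Egr2 and Myc were too low to be tested. By edgeR, 0 of 40 members passed, as did 0% of all genes; 4 members had an unadjusted p under 0.05, 2 higher and 2 lower, against 4.42% of all genes, 2.85% higher and 1.56% lower, and DESeq2 called 0 members.

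The 6 members with the smallest p in endothelial-like cells were 4 heat shock genes and 2 immediate early genes. Dnajb1, which delivers unfolded protein to HSP70, had 36.2, 38.7 and 33.0 CPM in the Dsp_het libraries and 33.2, 73.6 and 67.6 CPM in the control libraries, a log2 fold change of -0.70 ± 0.25 (edgeR adjusted p = 0.942). Control libraries 2 and 3 were above the Dsp_het libraries and control library 1 was among them. Hsp90aa1 had 171, 151 and 172 CPM in the Dsp_het libraries and 163, 241 and 212 CPM in the control libraries, a log2 fold change of -0.32 ± 0.15, and Dnaja1 had 533, 503 and 429 CPM in the Dsp_het libraries and 463, 670.3 and 799 CPM in the control libraries, a log2 fold change of -0.41 ± 0.19. Again control library 1 overlapped the Dsp_het libraries. Hspa1b, with its values given above, had a log2 fold change of -1.47 ± 0.71, and Hspa1a one of -1.44 ± 0.74, so that their standard errors were the widest of the heat shock genes. Ier3 had 124, 167 and 124 CPM in the Dsp_het libraries and 114, 116 and 108 CPM in the control libraries, a log2 fold change of 0.30 ± 0.13, with no overlap, the only member so in this class, where 7.88% of all genes did not overlap, 4.02% higher and 3.86% lower. Klf4 had 658, 823 and 619 CPM in the Dsp_het libraries and 646, 563 and 499 CPM in the control libraries, a log2 fold change of 0.30 ± 0.14. With copies included, the fold changes of Hspa1a, Hspa1b and Dnajb1 were -1.38, -1.45 and -0.66.

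In fibroblast-like cells, the AP-1 genes, Nr4a3, Socs3 and Klf4 had higher means in Dsp_het and Sgk1 a lower one, none past the threshold. Of 30 immediate early genes tested, 25 were higher (median 0.27), and of 8 heat shock genes 3 were (median -0.19), against a median of 0.00 over 8362 genes. Egr2, Egr3, Nr4a2 and Dusp2 were too low to be tested. By edgeR, 0 of 38 members passed, against 0.012% of all genes, and 8 had an unadjusted p under 0.05, 7 higher and 1 lower, against 3.26%, 1.7% higher and 1.57% lower. DESeq2 called 0 members.

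Sgk1 was the member nearest to the threshold in fibroblast-like cells. It had 26.4, 23.3 and 29.9 CPM in the Dsp_het libraries against 52.3, 54.9 and 57.3 CPM in the control libraries, a log2 fold change of -1.04 ± 0.19 (edgeR adjusted p = 0.147). The groups did not overlap, and every fibroblast-like value lay below every endothelial-like one. The 10 endothelial markers, all detected, summed to 138 to 186 CPM in fibroblast-like cells of the Dsp_het libraries and 242 to 2165 CPM in those of the control libraries. The part of endothelial RNA in the Sgk1 values was not tested. Within fibroblast cluster 15, Sgk1 had 28.3, 20.8 and 24.5 CPM in the Dsp_het libraries against 36.7, 48.3 and 25.5 CPM in the control libraries, and the groups overlapped. Within fibroblast cluster 17, it had 23.4, 28.3 and 35.6 CPM in Dsp_het and 83.8 and 84.3 CPM in control libraries 1 and 3, since control library 2 had fewer than 20 such cells. With copies included the log2 fold change was -0.80 (edgeR adjusted p = 0.457).

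Nr4a3 and Socs3 were the next members in fibroblast-like cells. Nr4a3 had 19.0, 12.2 and 20.8 CPM in the Dsp_het libraries against 8.04, 3.05 and 5.93 CPM in the control libraries, with no overlap. Its log2 fold change was 1.58 ± 0.36 (edgeR adjusted p = 0.396). These values came from 137 UMIs in all, so those of the control libraries rest on few molecules. Socs3, which switches off cytokine receptor signalling, had 142, 75.0 and 138 CPM in the Dsp_het libraries against 63.3, 54.9 and 71.8 CPM in the control libraries, a log2 fold change of 0.91 ± 0.23 (edgeR adjusted p = 0.563), also with no overlap. Junb had 2187, 1819 and 2015 CPM in the Dsp_het libraries against 1671, 1148 and 1484 CPM in the control libraries and was the third higher gene without overlap. These 3 and Sgk1 made 4 of 30 immediate early genes without overlap, against 7.69% of all genes, 3.7% higher and 3.99% lower. All 7 AP-1 and ATF genes had higher means in Dsp_het, by a median of 0.48 on the log2 scale. Fos had 2504, 1226 and 1414 CPM in the Dsp_het libraries against 1614, 750.3 and 932 CPM in the control libraries, and here control library 1 overlapped the Dsp_het libraries. Cluster 18, which held 69 fibroblast-like cells, 58 of them from Dsp_het library 1, had Fos at 4085 CPM in that library. In cluster 15, the largest, Fos had 2508, 1673 and 2148 CPM in the Dsp_het libraries against 1962, 880.3 and 1435 CPM in the control libraries. Nr4a3 had 21.5, 12.1 and 14.0 CPM in the Dsp_het libraries against 12.2, 2.10 and 4.77 CPM in the control libraries. Both genes overlapped, and Nr4a3 came from 97 UMIs there, 8, 1 and 3 of them in the control libraries. In the same cluster Junb had 2124, 1957 and 2423 CPM in the Dsp_het libraries against 1851, 1199.6 and 1491 CPM in the control libraries, and Socs3 had 133, 104 and 193 CPM in the Dsp_het libraries against 81.1, 60.9 and 100.2 CPM in the control libraries, both without overlap.

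In epicardial-like cells, Fos, Fosb, Nr4a1 and Atf3 had higher means in Dsp_het, again short of the threshold. Of 28 immediate early genes tested, 21 were higher (median 0.31), and of 8 heat shock genes 3 were (median -0.09), against a median of 0.00 over 8227 genes. Egr2, Egr3, Nr4a2, Dusp2, Myc and Maff were too low to be tested. By edgeR, 0 of 36 members passed, as did 0% of all genes, and 9 had an unadjusted p under 0.05, all higher, against 3.18% of all genes in either direction, 1.65% higher and 1.53% lower. DESeq2 called 0 members.

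Nr4a1 led this class. It had 147, 106 and 227 CPM in the Dsp_het libraries against 89.1, 67.6 and 41.7 CPM in the control libraries, a log2 fold change of 1.44 ± 0.30 (edgeR adjusted p = 0.53), and the groups did not overlap. Fos had 1957, 868 and 2837 CPM in the Dsp_het libraries against 749.9, 769.9 and 1099.8 CPM in the control libraries, a log2 fold change of 1.13 ± 0.30. Fosb had 172, 82.6 and 372 CPM in the Dsp_het libraries against 12.3, 52.9 and 89.2 CPM in the control libraries, a log2 fold change of 1.85 ± 0.48. Dsp_het library 3 was the highest for all 3 genes, and Dsp_het library 2 overlapped the control libraries for Fos and Fosb. Without Dsp_het library 2, Fos, Fosb and Nr4a1 passed by edgeR (adjusted p = 0.0184, 0.0419 and 0.0386), among 5 genes. The share of all genes that passed in that fit is not given here. The immediate early genes without overlap, all higher, were Jund, Ier3, Nr4a1 and Nr4a3, 4 of 28. Of 8 heat shock genes, Hsph1 was higher and Dnaja1 lower without overlap. Over all genes the share without overlap was 8.45%, 3.34% higher and 5.11% lower. Hsph1 and Nr4a3 had 78 and 127 UMIs in all in this class, so their separation rests on few molecules per library. Jund had 2020.4, 1616 and 2299 CPM in the Dsp_het libraries against 1564, 1167 and 1484 CPM in the control libraries, and Ier3 had 292.3, 197.2 and 270.2 CPM in the Dsp_het libraries against 153.7, 129.3 and 196.9 CPM in the control libraries. With copies included, the log2 fold changes of Nr4a1, Fos and Fosb were 1.04, 0.73 and 1.16, smaller than without copies, and none passed. The fibroblast markers, all 12 detected, summed to 9061 to 11888 CPM in epicardial-like cells of the Dsp_het libraries and 9540 to 11361 CPM in those of the control libraries. The macrophage markers, all 10 detected, summed to 43.7, 41.9 and 152 CPM in Dsp_het and 43.0, 58.8 and 52.4 CPM in control, highest in Dsp_het library 3. The part of macrophage RNA in the Fos values was not tested.

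**Figure D4:**
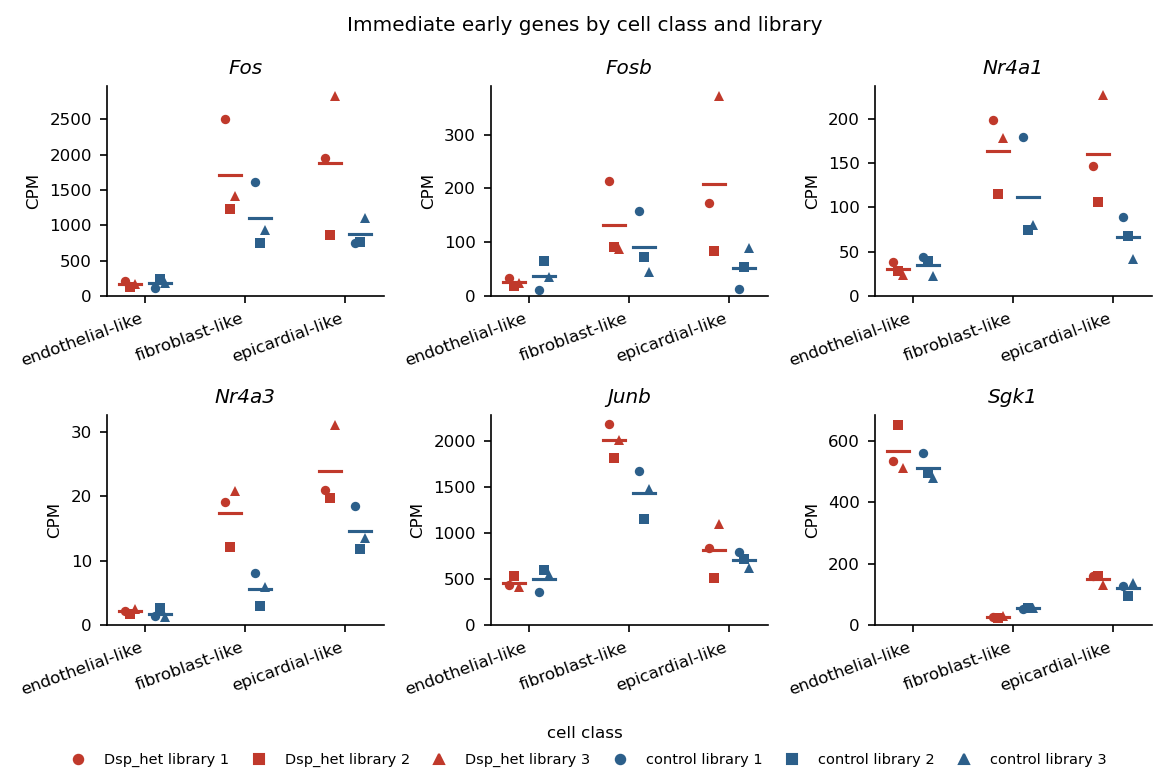
Level in CPM of 6 immediate early genes in endothelial-like, fibroblast-like and epicardial-like cells, with 1 point for each library (Dsp_het left, control right) and a line for each group mean. Fos, Fosb, Nr4a1 and Nr4a3 have higher Dsp_het means in fibroblast-like and epicardial-like cells, with Dsp_het library 3 on top in the epicardial-like ones. Sgk1 is near 540 CPM in endothelial-like and under 60 CPM in fibroblast-like cells.

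Whether the genotype difference itself differed between classes was tested as an interaction with library as a block. For fibroblast-like minus endothelial-like cells, 0 of 40 members passed by edgeR, against 0.0179% of all 11169 genes, and 6 had an unadjusted p under 0.05, 5 with a positive and 1 with a negative difference, against 5.29%, 1.48% positive and 3.81% negative. Sgk1 was again the nearest, at -1.15 ± 0.21 on the log2 scale (edgeR adjusted p = 0.0733), where its log2 fold change was -1.04 ± 0.19 in fibroblast-like and 0.14 ± 0.12 in endothelial-like cells. DESeq2 called Sgk1 here (adjusted p = 0.0468), and so did edgeR without control library 2 (adjusted p = 0.029), while with copies included edgeR gave an adjusted p of 0.179. For epicardial-like minus endothelial-like cells, 0 of 40 members passed by edgeR, against 0.00895% of all genes, and 9 had an unadjusted p under 0.05, all positive, against 5.16% in either direction, 1.94% positive and 3.21% negative. DESeq2 called 0 members. The smallest p was that of Nr4a1, with a difference of 1.53 ± 0.34 (edgeR adjusted p = 0.358). All 8 heat shock genes had a positive difference in both contrasts, with medians of 0.30 and 0.54, and so did all 7 AP-1 and ATF genes, with medians of 0.75 and 1.20. These contrasts share the endothelial-like values, so they are not separate evidence.

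**Figure D5:**
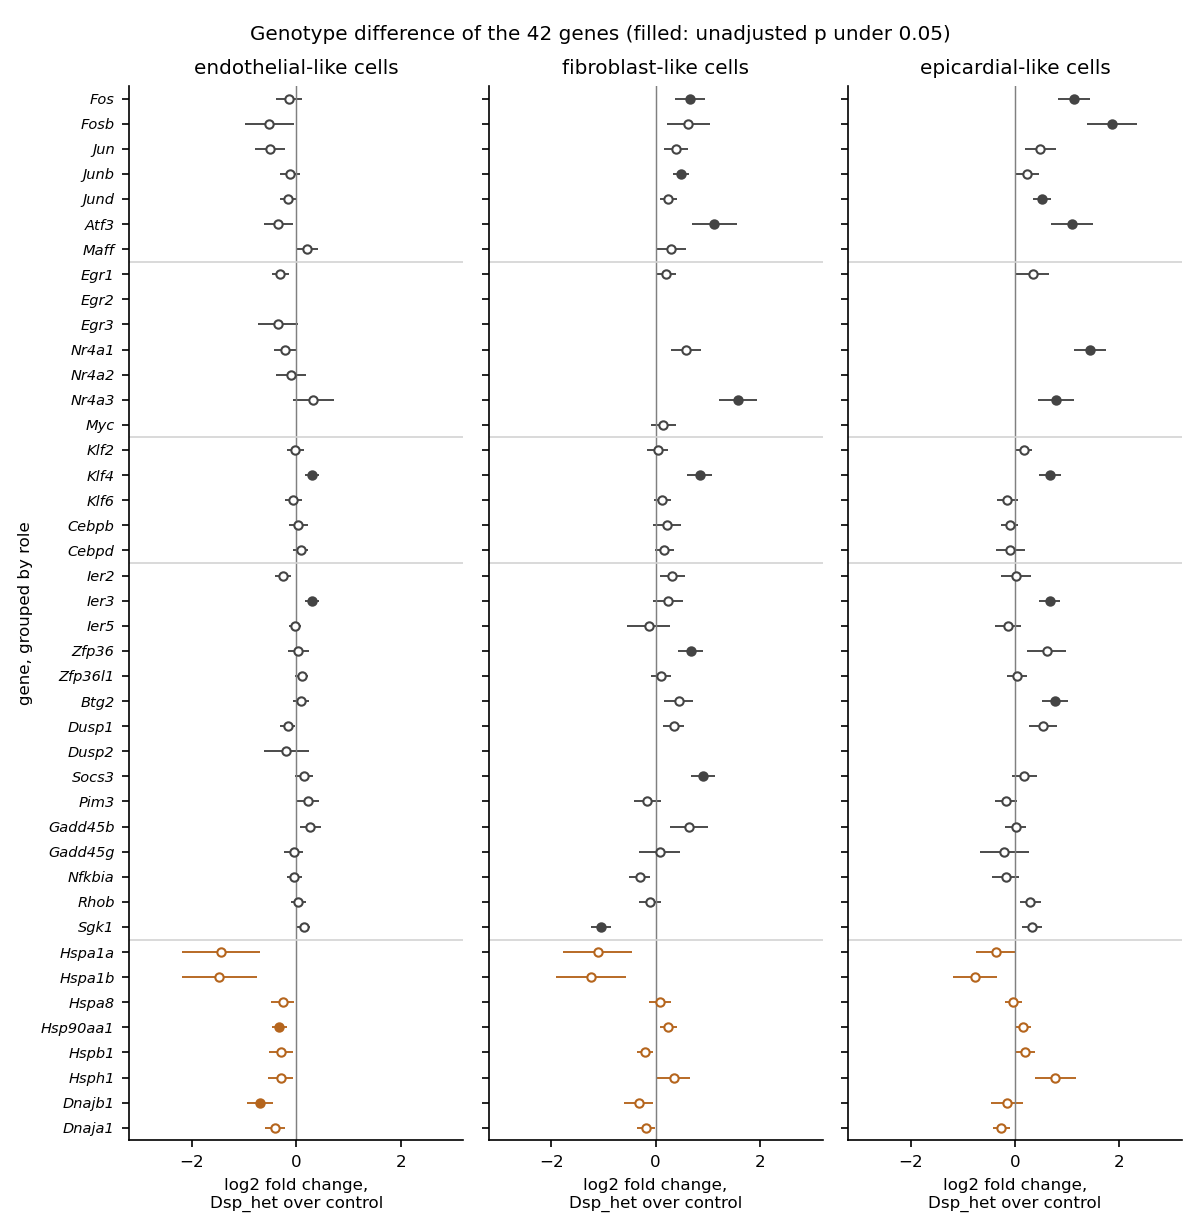
Log2 fold change of Dsp_het over control for the members tested (rows, grouped by role) in 3 cell classes, with bars for 1 standard error and filled points for an unadjusted p under 0.05, of which none passed the adjusted threshold. All heat shock genes lie left of 0 in endothelial-like cells, and the AP-1 genes lie right of 0 in fibroblast-like and epicardial-like cells.

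Related genes were followed as 4 lists, by counts. In each of the 6 comparisons, 0 genes of these lists passed by edgeR, and between 0 and 9 per list had an unadjusted p under 0.05. The 9 were of 39 immediate early and dissociation genes in all kept cells, where 12.5% of all genes had such a p. In the other 5 comparisons 0 to 4 per list did, against 3.18 to 5.29% of all genes. DESeq2 called 2 of the other chaperones in the sums over all kept cells, and 0 genes of these lists in the other 5 comparisons. They were the small heat shock proteins Hspb8 and Cryab, named here after their values were seen, with DESeq2 log2 fold changes of 1.55 ± 0.28 and 1.06 ± 0.21 (SE, DESeq2 adjusted p = 2.02e-05 and 6.62e-05, edgeR adjusted p = 0.143 for both). The 43 other immediate early and dissociation genes had medians near 0 in all kept, endothelial-like and epicardial-like cells (0.09, -0.05 and 0.03 on the log2 scale, with 39, 36 and 31 tested). In fibroblast-like cells 24 of the 29 tested had a higher mean in Dsp_het (median 0.18), with 1 at an unadjusted p under 0.05. Of the other chaperones, 26 of 34 tested had a lower mean in endothelial-like cells (median -0.07), against a median of -0.37 over the 8 heat shock members. The 16 upstream regulators, among them the genes of HSF1 and serum response factor, had medians of 0.01, -0.06 and -0.05 in endothelial-like, fibroblast-like and epicardial-like cells. Of the 16 endoplasmic reticulum stress genes, 13 had a higher mean in fibroblast-like cells (median 0.20) and 7 in endothelial-like cells (median -0.04).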

How the data were processed

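The deposited matrix holds raw UMI counts per gene and barcode for all 6 libraries, with the authors' own selection of barcodes and, in other files, their total counts and gene counts per barcode. The submitters' processing notes name GRCm38 and Seurat, while the aligner and the counting program (its use of strand included) are not given in sources used here. Library suffixes of barcodes were matched to the sample numbers in the labels.

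Barcodes shared by libraries were kept only in the library with most of their UMIs. For 3 of these barcodes that library held under 0.5 of the UMIs. Cells needed at least 500 UMIs, 200 genes and at most 20% mitochondrial UMIs. The doublet caller marked 54 of 12664 cells (0.426%), too few for it to have worked, so doublets remain. Cells were clustered with scanpy 1.11.5 (2000 variable genes, 30 components, 15 neighbours, Leiden resolution 1, seed 0), with the 42 members and 4 companion lists left out of the variable genes, and named from markers.

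UMI counts were summed per library and class and tested with edgeR 4.0.16 (quasi-likelihood, TMM, filterByExpr with a minimum count of 10, two-sided, Benjamini-Hochberg adjustment over all genes tested, threshold 0.05), and with DESeq2 1.42.0 as an alternative. A class was fitted only where every library held at least 20 of its cells. The edgeR script was first tested on simulated counts. Alternatives were other size factors, no filter on low counts, copies included, a stricter cell filter (at least 1000 UMIs and at most 10% mitochondrial UMIs), other clusterings, a replicate block and each library left out. Library depth was 7573157 to 17083660 UMIs, and with 3 libraries a group the spread between libraries sets the precision.

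The members and lists were chosen with earlier results of these data known. Values per library are given for the 6 members with the highest mean CPM and the 6 with the smallest p in endothelial-like cells. Other members given by library were chosen after their values were seen. Sequences are from RefSeq's GRCm38.p6 tables, where 35 of 42 members had a promoter. Of the 42 members, 10 are overlapped on the opposite strand by another gene of the matrix (Jun, Junb, Jund, Zfp36, Zfp36l1, Dusp1, Cebpb, Cebpd, Hspa1a and Dnaja1), so reads of the partner could be counted with them.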

Additional observations from a re-analysis of the deposited data

How the results depend on the processing

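No member passed by edgeR in the 6 comparisons, so no call could be lost. The values recomputed were 48: those of members with an unadjusted p under 0.05 by edgeR, and those of Hspa1a and Hspa1b in endothelial-like cells. Of their 637 recomputations, 34 passed the threshold. Of these, 24 came without the filter on low counts, which adds genes of few UMIs to the fit, 5 without Dsp_het library 2, 4 with DESeq2 and 1 without control library 2. With copies included, other size factors, other clusterings or the stricter cell filter, 0 members passed by edgeR in any comparison. DESeq2 called 3 members in all kept cells, among 369 of 12971 genes. In the fibroblast-like minus endothelial-like contrast it called 1 member, among 2 of 11169 genes. It called 11 genes in endothelial-like cells but 0 in the epicardial-like minus endothelial-like contrast. Without the filter, edgeR called 54 genes in all kept cells, 185 in endothelial-like (5 members), 143 in fibroblast-like (10 members) and 44 in epicardial-like cells (5 members). In the 2 contrasts it then called 169 genes (10 members) and 72 genes (8 members). These counts run over all members, not only the 48 values above. The share of all genes called without the filter is not given here, so the member counts have no background to be read against. With copies it called 5 genes in all kept cells and 0 in the epicardial-like minus endothelial-like contrast, where the stricter cell filter also left 0. With members allowed in the clustering, the fibroblast-like minus endothelial-like contrast called 1 gene.

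Leaving out 1 library in turn gave 0 to 156 genes and 0 to 2 members in all kept cells, 0 to 11 genes in endothelial-like, 0 to 28 in fibroblast-like, and 0 to 5 genes and 0 to 3 members in epicardial-like cells. The fibroblast-like minus endothelial-like contrast gave 0 to 61 genes and 0 to 1 members, and the epicardial-like one 0 to 5 genes. The highest counts came without Dsp_het library 2 or, in fibroblast-like cells and the contrast with them, without control library 2. The shares of all genes called in these fits are not given here. The log2 ratio of Dsp over all kept cells was 0.12 and ran from -0.58 without Dsp_het library 3 to 0.38, and was -0.09 without control library 1. The heat shock sum of epicardial-like cells was 3813 CPM with copies, against 3530.2 CPM without. Outside these, the cause of the changes was not tested. The replicate numbers did not pair the libraries, with correlations of same-numbered libraries between -0.09 and 0.12. With a replicate block, edgeR called 4 genes in endothelial-like cells, 9 in fibroblast-like cells and 0 members in any class. The alternatives for macrophage-like and pericyte-like cells were not run, since these classes were not fitted. Genes of few UMIs, such as Egr2, Egr3, Nr4a2, Dusp2 and Myc, were too shallow to compare in some classes.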
